A study of Mus musculus with 12 samples.

Results

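The 8 genes described here belong to sterol synthesis and its control: Hmgcs1, Mvk, Mvd, Idi1 and Sqle encode enzymes of the pathway, Srebf2 and Insig1 its control, and Ch25h an enzyme that makes an oxysterol. They were taken by symbol from a named list, and all 8 of 24675 named genes on the array, each with 1 probe set, were found. Total RNA came from mouse bone marrow-derived macrophages, grown from the marrow of wild-type mice aged 8 to 10 weeks for 7 days in medium with L cell-conditioned medium as the M-CSF source. The groups were hepcidin at 1 h, PBS at 1 h, hepcidin at 3 h and PBS at 3 h, with 3 arrays each. Per the growth protocol, given for all 12 arrays, the wells were in DMEM alone, without serum or L cell medium, for 1 h before the peptide was added. Hepcidin is a liver peptide that limits iron release into plasma, and its dose is given as 1 µg/ml in one protocol and 10 µg/ml in another. Separate animals or cultures are not stated for the 3 arrays of a group, so a p-value here weighs a difference against a spread that may be only technical. Arrays of different groups share replicate numbers. Whether a number marks a shared source is not stated, and the main fit does not pair by it.

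Cells make cholesterol from acetyl-CoA through mevalonate, isoprenoids, squalene and a series of sterols. The transcription factor SREBP2, the product of Srebf2, turns on nearly all of these enzyme genes when membrane cholesterol is low. When sterols are plentiful, SCAP and the INSIG proteins hold SREBP2 in the endoplasmic reticulum, and the oxysterol that the Ch25h product makes from cholesterol strengthens this hold. In macrophages Ch25h is known as a gene induced by Toll-like receptor ligands and interferon.

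The array values are RMA expression values and are read here as log2. Array medians lay between 4.84 and 4.94, and r over all probe sets was 0.994 to 0.997 for arrays of the same group. The number of arrays limits the precision: the median SE over genes was 0.10 for a log2 difference between 2 groups. The inflammatory genes Tnf and Cxcl2 were called higher with hepcidin at both times. Each of the 7 measured macrophage markers of 8 listed stood above the median of all values, whereas 6 of 6 dendritic cell, 3 of 3 erythroid, 4 of 5 lymphocyte, 5 of 7 neutrophil and 4 of 6 fibroblast markers stood below it. Hepcidin changed 0 of these markers of other cell types at 1 h, at 3 h or in the difference between the times, and among the macrophage markers it changed Mertk and Cd14. In bulk RNA, fewer cells of a type and less RNA per cell cannot be told apart.

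Of the 8 genes, Ch25h had the largest difference between hepcidin and PBS at both times. At 3 h, Ch25h stood 1.91-fold higher with hepcidin than with PBS and Mvd 1.23-fold higher, and both passed the test. These are 2 of 8 genes, both higher, where 5.33% of all 24675 genes were called, 2.80% higher and 2.53% lower. A call, which is what the words rose and fell stand for, means an adjusted p under 0.05 in limma with all genes in the adjustment. At 1 h, limma called 0 of the 8 (0.559% of all genes), and 2 of them, Mvk and Ch25h, had an unadjusted p under 0.05. Of all 24675 genes, 1683 had such a p at 1 h and 4166 at 3 h. The median log2 difference of the 8 genes was 0.15 at 1 h and 0.20 at 3 h, beside -0.002 and 0.02 for all genes. The 8 were chosen with earlier results of these data known, so these medians are a description only. For 13 further sterol synthesis enzymes, described below, the medians were -0.02 at 1 h and 0.02 at 3 h.

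**Figure D1:**
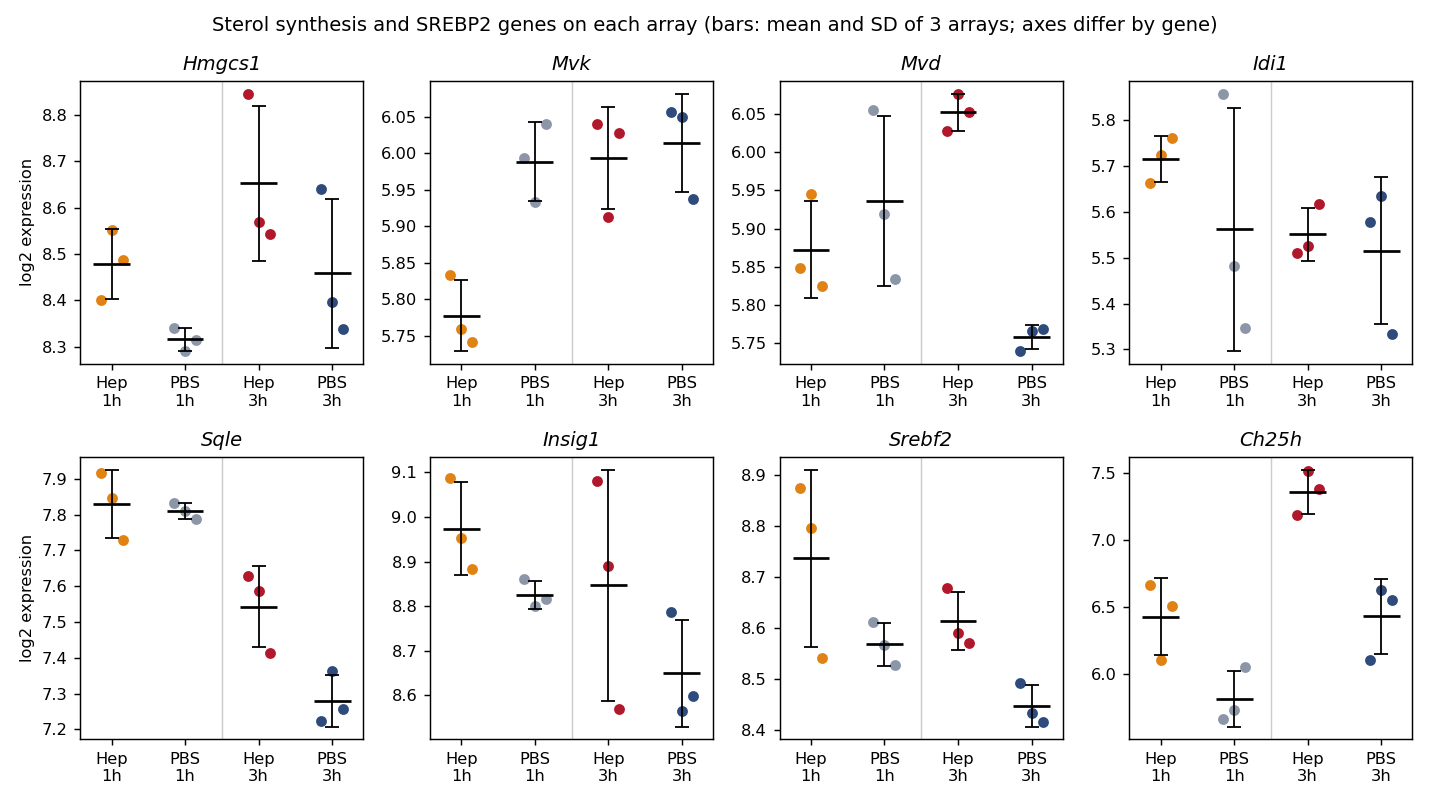
Log2 expression of the 8 genes on each of the 12 arrays, with 1 panel per gene, groups on the x axis, points for arrays and bars for the mean and SD of 3 arrays. The y axes differ by gene, and Ch25h is the gene whose hepcidin arrays of 3 h, 7.18 to 7.51, stand farthest above the PBS arrays of 3 h, 6.11 to 6.63.

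Hmgcs1 (Entrez gene 208715) encodes the cytosolic HMG-CoA synthase, an early enzyme of mevalonate synthesis. Its arrays read 8.40, 8.55 and 8.49 with hepcidin at 1 h, against 8.34, 8.29 and 8.32 with PBS at 1 h. At 3 h they read 8.84, 8.57 and 8.54 with hepcidin, against 8.64, 8.40 and 8.34 with PBS. The 1 h groups did not overlap and the 3 h groups did, with replicate 1 the highest array of both 3 h groups. Each hepcidin array of 3 h lay above the PBS array of the same number. The 3 h difference passed in 0 of 18 alternative settings, a replicate block among them (limma adjusted p from 0.154 to 0.659). The log2 difference was 0.16 at 1 h (SE 0.10, adjusted p = 0.836) and 0.19 at 3 h (SE 0.10, adjusted p = 0.349). The 95% interval at 3 h ran from -0.02 to 0.41, that is up to 1.33-fold higher.

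Mvk (Entrez gene 17855) encodes mevalonate kinase. At 1 h it read 5.83, 5.76 and 5.74 with hepcidin, against 5.99, 5.93 and 6.04 with PBS. All hepcidin arrays lay below all PBS arrays, but the log2 difference of -0.21 (SE 0.07) did not pass (adjusted p = 0.443). At 3 h the means were 5.99 ± 0.07 with hepcidin and 6.01 ± 0.07 with PBS (SD, n = 3 each), and the groups overlapped. The difference at 3 h was -0.02 (95% interval -0.17 to 0.13), and it was positive when either replicate 1 of PBS or replicate 2 of hepcidin was left out at 3 h.

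Mvd (Entrez gene 192156), the mevalonate diphosphate decarboxylase gene, was the sterol enzyme gene that rose at 3 h. It read 6.03, 6.08 and 6.05 with hepcidin at 3 h, against 5.74, 5.77 and 5.77 with PBS at 3 h. The groups did not overlap and each spanned a narrow range. Its log2 difference was 0.29 (SE 0.07, 95% interval 0.14 to 0.45, adjusted p = 0.0269). Leaving out any 1 of the 6 arrays of 3 h ended the call, with adjusted p from 0.0518 to 0.0836, as did centring each array on its median (0.0518) and fitting only these 2 groups (0.0636). At 1 h Mvd averaged 5.87 ± 0.06 with hepcidin and 5.94 ± 0.11 with PBS, overlapping groups with a log2 difference of -0.06 (adjusted p = 0.938). From 1 h to 3 h Mvd differed by -0.18 in PBS (limma adjusted p = 0.362) and by 0.18 with hepcidin (0.198), each without overlap. The gap at 3 h thus holds a lower PBS group as well as a higher hepcidin group. The difference between its 2 hepcidin effects, 0.36 on the log2 scale (SE 0.10), did not pass (adjusted p = 0.151). In that comparison limma called 0 of the 8 genes (1.03% of all genes). Sqle and Mvd were the 2 with an unadjusted p under 0.05, beside 2488 of all 24675 genes.

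Idi1 (Entrez gene 319554) encodes an isopentenyl-diphosphate isomerase. Its hepcidin and PBS arrays overlapped at both times, at 5.66 to 5.76 against 5.35 to 5.86 at 1 h and 5.51 to 5.62 against 5.33 to 5.63 at 3 h. Here the PBS groups were the more spread ones, with an SD of 0.26 at 1 h and 0.16 at 3 h. The log2 difference was 0.15 at 1 h (SE 0.12, adjusted p = 0.898) and 0.04 at 3 h (SE 0.12, adjusted p = 0.923). The second turned negative without PBS 3 h replicate 3, at -0.06.

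Sqle (Entrez gene 20775) encodes squalene epoxidase, a flux-controlling enzyme at the entry to sterols. Its clearest change was with time in PBS. It read 7.22, 7.36 and 7.26 with PBS at 3 h, against 7.83, 7.81 and 7.79 with PBS at 1 h. The groups lay well apart, and Sqle fell by 0.53 on the log2 scale (SE 0.08, 1.44-fold lower, adjusted p = 0.0131). It was the 1 gene of the 8 called between the PBS groups, where 0.450% of all genes were called and 0.243% were lower. The call ended when any 1 of the 3 PBS arrays of 1 h was left out, and likewise replicate 1 or 3 of PBS at 3 h (adjusted p from 0.0510 to 0.0770), and with only the PBS groups in the fit (0.0551).

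With hepcidin, Sqle read 7.63, 7.59 and 7.41 at 3 h, against 7.92, 7.85 and 7.73 at 1 h. Those groups did not overlap either, with a log2 difference of -0.29 (SE 0.08, adjusted p = 0.0545). It passed with a replicate block (0.0359), with a trended and robust prior (0.0326) and among genes above the median mean (0.0215). At 3 h the hepcidin arrays all lay above the PBS arrays. That difference of 0.26 (SE 0.08, 95% interval 0.09 to 0.43) did not pass (adjusted p = 0.0774), but did with a trended and robust prior (0.0499), among genes above the median mean (0.0322) and without hepcidin 3 h replicate 3 (0.0408). At 1 h the hepcidin and PBS groups overlapped, and the log2 difference was 0.02 (SE 0.08, adjusted p = 0.993). The hepcidin effect at 3 h exceeded that at 1 h by 0.24 (SE 0.11, adjusted p = 0.482). The comparisons of hepcidin with PBS at 3 h and of the PBS groups share the PBS arrays of 3 h, so for Sqle and Mvd they are not independent.

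**Figure D2:**
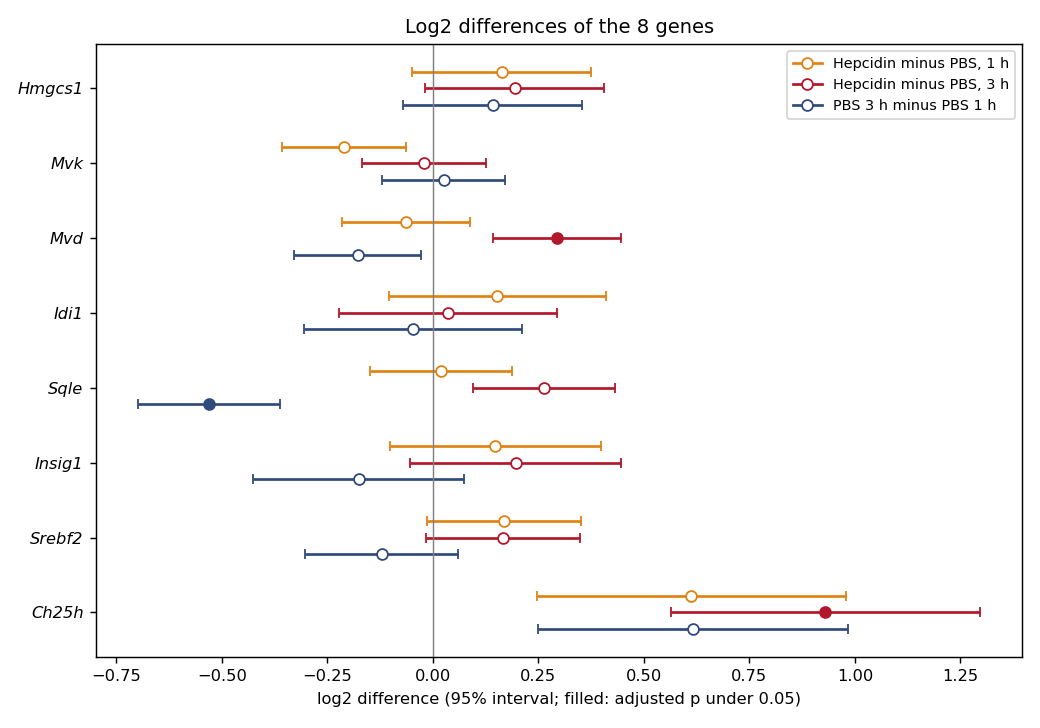
Log2 differences of the 8 genes (x axis) for hepcidin minus PBS at 1 h, hepcidin minus PBS at 3 h and PBS 3 h minus PBS 1 h, with 95% intervals and filled points where the adjusted p was under 0.05. Filled are Ch25h (0.93) and Mvd (0.29) with hepcidin at 3 h and Sqle (-0.53) between the PBS groups.

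Srebf2 (Entrez gene 20788) encodes the SREBP2 precursor and is itself one of its targets. At 3 h it read 8.68, 8.59 and 8.57 with hepcidin, against 8.49, 8.43 and 8.42 with PBS. The hepcidin arrays all lay above the PBS arrays, at a log2 difference of 0.17 (SE 0.08, 95% interval -0.02 to 0.35, adjusted p = 0.350). At 1 h the difference was also 0.17 (SE 0.08, adjusted p = 0.766), with replicate 3 of the hepcidin group, at 8.54, inside the PBS range of 8.53 to 8.61.

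Insig1 (Entrez gene 231070) encodes an endoplasmic reticulum anchor of SCAP and is a sensitive SREBP2 target. At 1 h it read 9.09, 8.95 and 8.88 with hepcidin, against 8.86, 8.80 and 8.82 with PBS, without overlap. At 3 h it read 9.08, 8.89 and 8.57 with hepcidin, against 8.79, 8.56 and 8.60 with PBS. The 3 hepcidin arrays of 3 h were spread across and beyond the PBS range (SD 0.26). The log2 difference was 0.15 at 1 h (SE 0.11, adjusted p = 0.898) and 0.20 at 3 h (SE 0.11, 95% interval -0.05 to 0.45, adjusted p = 0.435). An Insig1 change of up to 1.36-fold at 3 h is therefore within the interval.

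Ch25h (Entrez gene 12642) encodes a cholesterol hydroxylase whose oxysterol product is also a ligand of the LXR receptors. At 3 h it read 7.18, 7.51 and 7.38 with hepcidin, against 6.11, 6.63 and 6.56 with PBS. The lowest hepcidin array stood above the highest PBS array. Ch25h rose by 0.93 on the log2 scale (SE 0.17, 95% interval 0.56 to 1.30, adjusted p = 0.00547). Under all 18 alternative settings, 12 of which left out 1 array each, it passed, with adjusted p from 0.00262 to 0.0271.

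At 1 h Ch25h read 6.66, 6.11 and 6.51 with hepcidin, against 5.66, 5.73 and 6.05 with PBS. The groups did not overlap, but replicate 2 of the hepcidin group came close to replicate 3 of the PBS group. The log2 difference of 0.61 (SE 0.17, 95% interval 0.25 to 0.98) did not pass (adjusted p = 0.281). The effect at 3 h exceeded that at 1 h by 0.32 (SE 0.24, adjusted p = 0.727), so a difference between the times was not shown.

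Ch25h also stood higher at 3 h than at 1 h within each treatment. With hepcidin it rose by 0.93 between the times (SE 0.17, adjusted p = 0.00617), as the 1 gene of the 8 called in that comparison, where 5.05% of all genes were called, 2.44% higher. With PBS the log2 difference was 0.62 (SE 0.17, 95% interval 0.25 to 0.98, adjusted p = 0.165), and the PBS groups did not overlap. The order of the group means was hepcidin at 3 h (7.36), PBS at 3 h (6.43), hepcidin at 1 h (6.43) and PBS at 1 h (5.81). Only the middle pair of groups in this order overlapped.

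In the order of the other genes, most neighbouring groups overlapped. All neighbours did so for Hmgcs1, from hepcidin at 3 h (8.65) down to PBS at 1 h (8.32), and for Idi1, from hepcidin at 1 h (5.71) down to PBS at 3 h (5.51). For Insig1 and Srebf2, PBS at 3 h was lowest, at 8.65 and 8.45, and apart from PBS at 1 h at 8.83 and 8.57, the next group up. PBS at 3 h was also lowest and apart for Mvd (5.76) and Sqle (7.28), where the next groups up were hepcidin at 1 h (5.87) and hepcidin at 3 h (7.54). For Mvk the group apart was hepcidin at 1 h, the lowest at 5.78. Over the 8 genes, hepcidin arrays all lay above PBS arrays in 3 at 1 h and in 4 at 3 h, beside 6.47% and 11.8% of all genes. They all lay below in 1 gene at 1 h, Mvk, and in 0 at 3 h, beside 5.86% and 9.90%. Between the PBS groups the 3 h arrays all lay above in 1 gene, Ch25h, and below in 4, Sqle, Mvd, Insig1 and Srebf2, beside 8.66% and 9.04% of all genes. Between the hepcidin groups they all lay above in 3, Mvd, Mvk and Ch25h, and below in 2, Sqle and Idi1, beside 10.5% and 9.56%.

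Promoter letters of 3 genes are shown, with the motifs searched in them. RefSeq start sites of GRCm38.p6 gave windows of 300 bases, 250 of them upstream, for 7 of the 8 genes (Sqle had no entry). Printed are the 150 bases upstream of the start, on the strand of the gene. Hmgcs1 is shown for its match to the sterol regulatory element and Mvd and Ch25h as the genes that rose. Capitals mark CCAAT, the box bound by NF-Y, GGGCGG, the box bound by Sp1, and TCACNCCAC, the core of the sterol regulatory element, each on either strand.
Hmgcs1, chr13:119690201-119690350, plus strand: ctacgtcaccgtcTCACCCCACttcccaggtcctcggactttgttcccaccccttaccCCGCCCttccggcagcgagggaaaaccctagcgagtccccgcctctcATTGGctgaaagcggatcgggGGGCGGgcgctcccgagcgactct
Mvd, chr8:122443423-122443572, minus strand: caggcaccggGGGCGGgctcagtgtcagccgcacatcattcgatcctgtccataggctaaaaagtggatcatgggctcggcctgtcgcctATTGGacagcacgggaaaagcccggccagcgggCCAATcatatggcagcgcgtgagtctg
Ch25h, chr19:34475149-34475298, minus strand: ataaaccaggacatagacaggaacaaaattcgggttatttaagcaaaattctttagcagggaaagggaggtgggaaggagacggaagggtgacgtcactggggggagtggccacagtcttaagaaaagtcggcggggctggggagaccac
The letters of the sterol element core were found in Hmgcs1 alone of the 7 windows, 137 to 129 bases upstream of the start, and in 1.24% of all 32851 windows. Its shorter form CACCCCAC, within the same site, was in 2.87% of all windows. CCAAT was in 6 of the 7 windows and in 37.4% of all windows, and GGGCGG was in 6 and in 35.7%. Ch25h was the window without either. None of the 7 windows held any of 4 motifs of inflammatory factors, each searched on both strands. These were GAAA, any 2 bases and GAAA for interferon response elements (3.44% of all windows), TTCNNNGAA for STAT (8.30%), TGANTCA for AP-1 (7.81%), and GGGA, any 2 bases and TTCC for NF-kB (1.47%). A match or its absence describes these letters in these windows only.

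The rest of the synthesis pathway was measured in 13 of 16 further enzymes listed, and the other 3 were not analysed here. Limma called 0 of these 13 with hepcidin at 1 h and 0 at 3 h. An unadjusted p under 0.05 was found for 1 at each time, named here after their values were seen, the sterol reductase gene Lbr at 1 h (log2 difference -0.40, adjusted p = 0.544) and the late-pathway reductase gene Hsd17b7 at 3 h (0.26, adjusted p = 0.152). Among all 24675 genes, 1683 had such a p at 1 h and 4166 at 3 h. Together with Hmgcs1, Mvk, Mvd, Idi1 and Sqle, 11 of 18 enzymes had a positive difference at 3 h, or a median of 0.06, beside 54.4% of all genes and a median of 0.02. At 1 h 8 of 18 were positive, with a median of -0.02, beside -0.002 for all genes. With median centring 12 of 18 were positive with a median of 0.01, beside 0.03 for all genes, and with a second quantile normalization 6 of 18 with a median of -0.04, beside -0.005.

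Between the PBS groups the enzymes leaned one way. In 15 of 18 the log2 difference of 3 h minus 1 h was negative, beside 51.2% of all genes, and their median was -0.15 beside -0.004 for all genes. The 15 of 18 held with median centring (median -0.14) and with a second quantile normalization (median -0.15). Both settings moved the values little, so they are weak checks of this count. It was not recomputed with an array left out. Sqle was the 1 of 18 that passed. Of the 13 enzymes beyond Hmgcs1, Mvk, Mvd, Idi1 and Sqle, 12 had a negative difference and limma called 0. The lowest of the 13 was Fdps at -0.41 (limma adjusted p = 0.667). Its PBS means, 4.65 at 1 h and 4.24 at 3 h, lay below the array medians, so this value comes from a low signal. An unadjusted p under 0.05 was found for 3 of them, the late-pathway genes Hsd17b7 (log2 difference -0.34, adjusted p = 0.159), Msmo1 (-0.27, adjusted p = 0.201) and Dhcr7 (-0.16, adjusted p = 0.443), again named after their values were seen. Among all 24675 genes, 2619 had such a p between the PBS groups. Between the hepcidin groups 11 of 18 were negative, with a median of -0.07, beside 46.1% of all genes and a median of 0.01. Limma called 0, and 8 had an unadjusted p under 0.05, beside 4107 of all 24675 genes. These 8, again named after their values were seen, went both ways. Mvk, Mvd and Lbr were higher at 3 h, and Sqle, Pmvk, Lss, Msmo1 and Dhcr7 lower. The count of negative values was 14 of 18 with median centring (median -0.10) and 11 of 18 with a second quantile normalization. A difference between the treatments in this count was not tested.

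**Figure D3:**
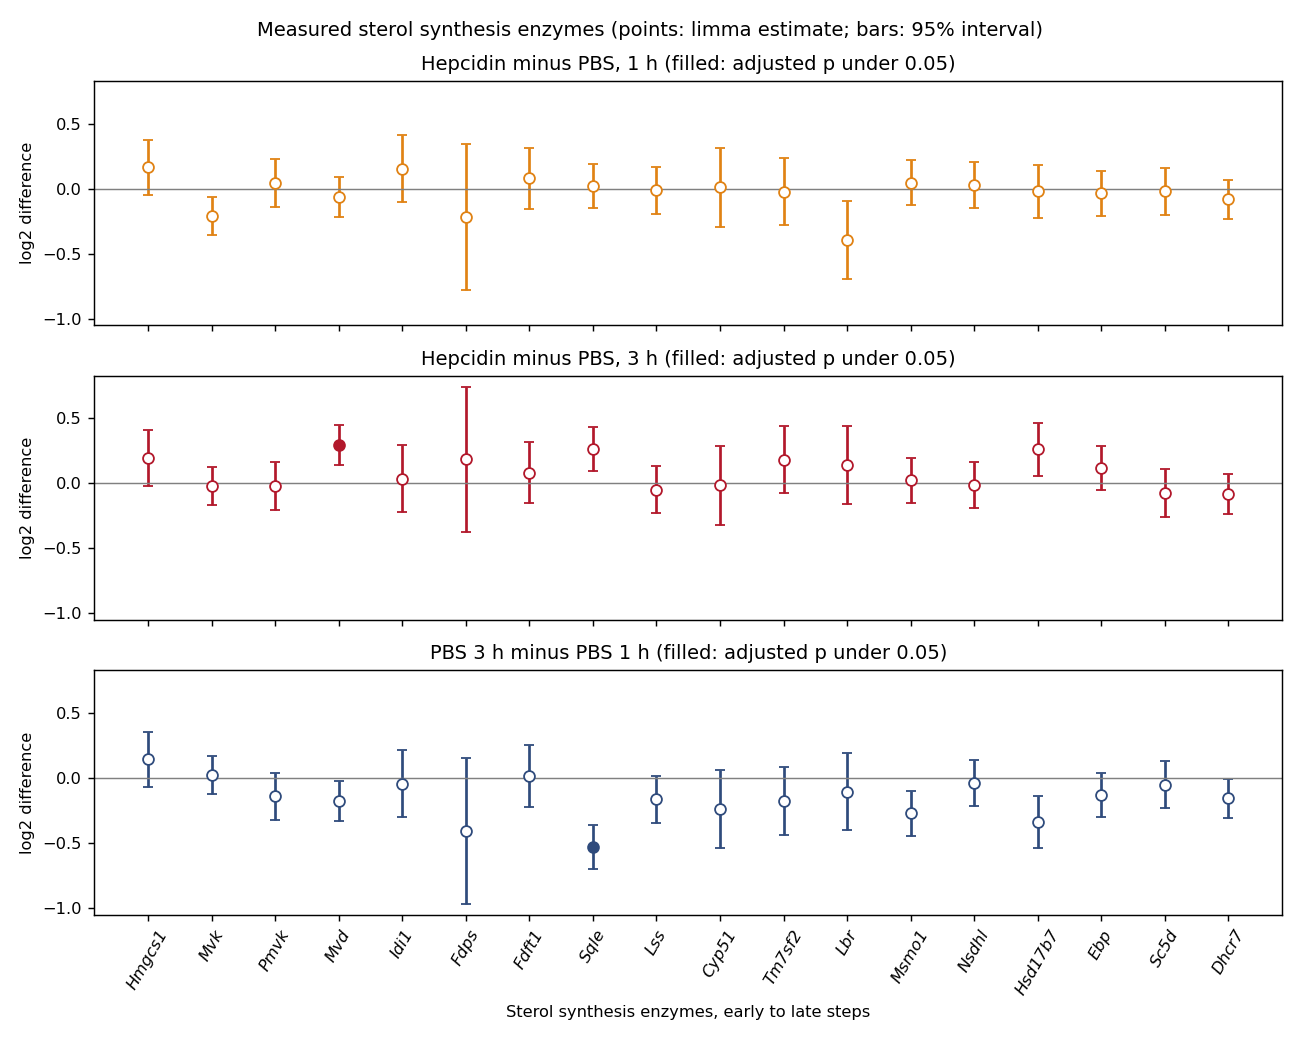
Log2 differences (y axis) of the 18 measured sterol synthesis enzymes, ordered from early to late steps, with 1 panel each for hepcidin minus PBS at 1 h, the same at 3 h, and PBS 3 h minus PBS 1 h, 95% intervals as bars and filled points where the adjusted p was under 0.05. With hepcidin at 3 h only Mvd is filled, and between the PBS groups 15 of 18 points lie below 0 with only Sqle filled.

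Among the genes that control SREBP processing, 11 of 12 listed were measured, and 1 rose with hepcidin at 3 h, where 2.80% of all genes were called higher. Rnf145, a sterol-responsive ubiquitin ligase gene that LXR induces in mouse liver, read 7.93, 7.90 and 7.98 with hepcidin, against 7.19, 7.06 and 7.44 with PBS. All hepcidin arrays lay above the PBS arrays, and the rise was 1.63-fold (log2 difference 0.71, SE 0.11, adjusted p = 0.00187). At 1 h limma called 0 of the 11, with 1, Rnf145, at an unadjusted p under 0.05, beside 1683 of all 24675 genes. Scap, the SREBP escort gene, differed by 0.15 at 3 h (95% interval -0.03 to 0.32, adjusted p = 0.407). Srebf1, the gene of the paralogous factor SREBP1, differed by 0.06 (-0.11 to 0.24, adjusted p = 0.758), and Insig2 by -0.09 (-0.27 to 0.09, adjusted p = 0.669).

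Of 11 LDL uptake and endosomal cholesterol genes listed 8 were measured, and 1 fell at 3 h, where 2.53% of all genes were called lower. Npc1, which encodes the lysosomal cholesterol exporter, read 10.52, 10.63 and 10.56 with hepcidin, against 10.80, 10.84 and 10.84 with PBS. The groups did not overlap, and Npc1 fell by 0.26 on the log2 scale (SE 0.06, adjusted p = 0.0295). The call ended with median centring (0.0689), with only these groups in the fit (0.115) and without any 1 PBS array of 3 h or hepcidin 3 h replicate 1 or 3 (0.0639 to 0.106). At 3 h 7 of the 8 had a negative difference, beside 45.6% of all genes, with a median of -0.15, beside 0.02 for all genes. The list mixes genes of different roles, so a direction of LDL uptake cannot be read from this count. Vldlr, the 1 with a positive difference, had means of 4.82 with hepcidin and 4.74 with PBS at 3 h, below the array medians. At 1 h limma called 0, with 0 at an unadjusted p under 0.05.

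Around Ch25h, oxysterol handling was covered by 14 further genes listed. Of these 11 were measured, and 2 rose and 2 fell with hepcidin at 3 h, where 2.80% of all genes were called higher and 2.53% lower. Among the 7 not called, Cyp7b1, Cyp39a1 and Sult2b1 had low signals. Their group means of 3 h, from 3.34 to 4.43, lay below the array medians. Gpr183, the receptor for oxysterols that are made from the Ch25h product, read 7.98, 8.03 and 7.49 with hepcidin at 3 h, against 9.18, 9.14 and 8.97 with PBS at 3 h. Every hepcidin array lay below every PBS array, and Gpr183 fell by 1.27 on the log2 scale (SE 0.12, 2.41-fold lower, adjusted p = 3.37e-05). Cyp27a1, a mitochondrial sterol hydroxylase gene, read 6.45, 6.72 and 6.47 with hepcidin, against 7.44, 7.03 and 7.23 with PBS, and fell by 0.68 (SE 0.10, adjusted p = 0.0016). It was lower on all hepcidin arrays.

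Gramd1a, which encodes a carrier of cholesterol from the plasma membrane to the endoplasmic reticulum, read 8.43, 8.63 and 8.42 with hepcidin at 3 h, against 8.04, 7.98 and 8.01 with PBS at 3 h. These groups lay apart, and the rise was 0.48 (SE 0.07, adjusted p = 0.00166). Nr1h3, the gene of the oxysterol-activated receptor LXR alpha, rose by 0.50 (SE 0.12, adjusted p = 0.0326), with 7.21, 7.66 and 7.34 on the hepcidin arrays, against 6.80, 6.99 and 6.94 on the PBS arrays, without overlap. Its call ended with median centring (0.0665), with only these groups in the fit (0.0868) and without any 1 PBS array of 3 h or hepcidin 3 h replicate 2 or 3 (0.0648 to 0.116). Limma called 0 of the 11 at 1 h, with 1, Gramd1a, at an unadjusted p under 0.05, beside 1683 of all 24675 genes.

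**Figure D4:**
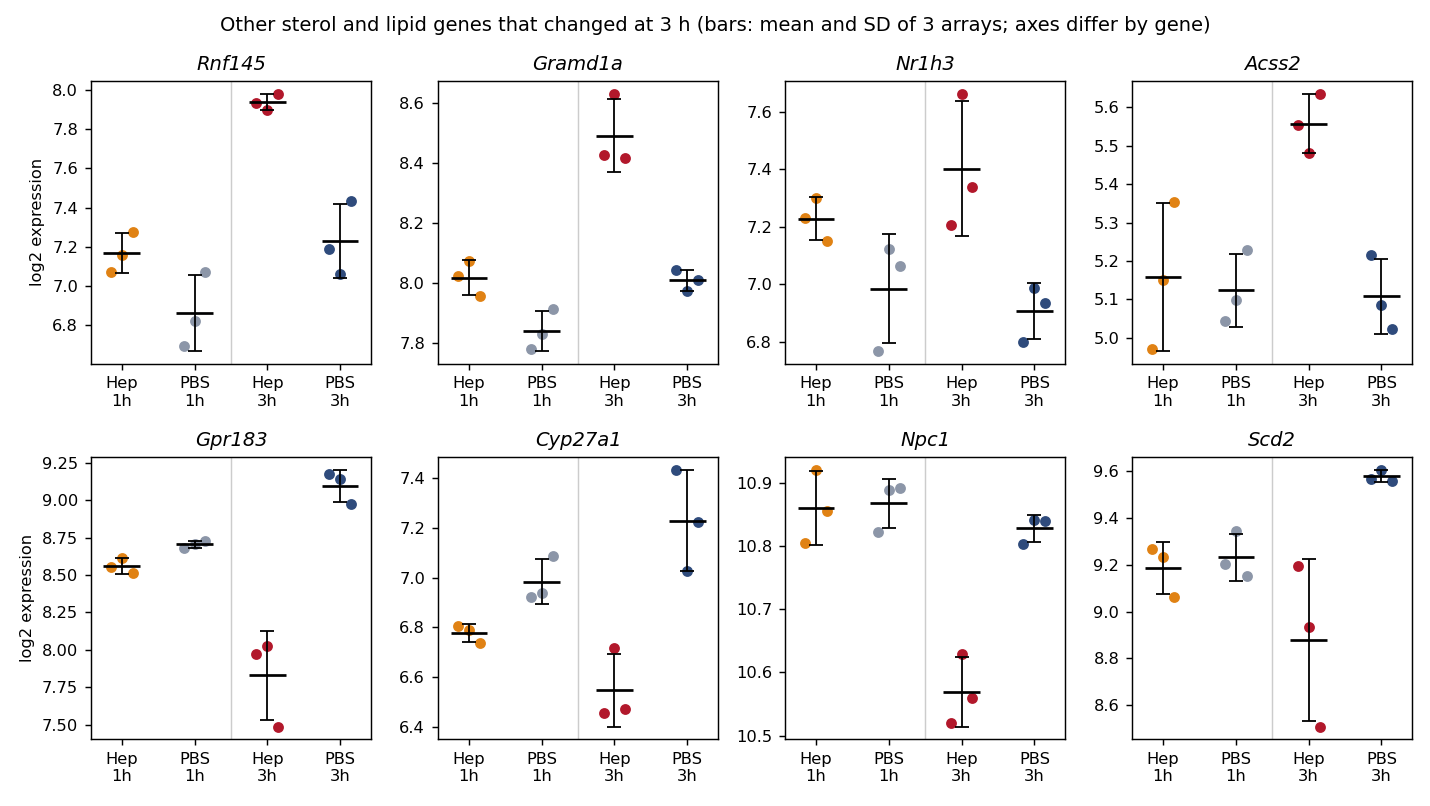
Log2 expression of 8 other sterol and lipid genes that changed with hepcidin at 3 h, with 1 panel per gene, groups on the x axis, points for arrays and bars for the mean and SD of 3 arrays. The top row holds the genes that rose, such as Rnf145 (7.94 with hepcidin and 7.23 with PBS at 3 h), and the bottom row those that fell, such as Gpr183 (7.83 and 9.10).

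For the 3 genes called in any comparison, the named genes with the most similar values over the 12 arrays were taken by the root mean square difference of values centred on each gene's mean. Ch25h, whose values had an SD of 0.61 over the arrays, was closest to Jag1, a Notch ligand gene, at 0.196, then to Trps1 at 0.196 and Spaca6 at 0.197 on the log2 scale. Sqle, with an SD of 0.24, was closest to the stress response factor gene Atf4 at 0.0865, then to Nolc1 at 0.0874 and Fastkd3 at 0.0876. Mvd, with an SD of 0.12, was closest to Enthd1 at 0.0499, Slc6a7 at 0.0536 and Usb1 at 0.0575. No likeness to another gene of sterol synthesis ranked in these first 3 for any of them.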

How the data were processed

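The deposited table holds log2 expression values of 25429 probe sets on 12 arrays. Per the submitters' processing notes the authors used RMA and Partek, without versions. The log base is not written in a label and was taken from the range of the values. No other filter or normalization was applied. A genome build for the array is not given in the sources. Probe sets were named through the platform annotation and the RefSeq table of GRCm38.p6: 24675 had 1 symbol and were tested, and the other 754, without a single symbol, were left out.

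Differences came from R 4.3.3 and limma 3.58.1 (lmFit with 4 group means, contrasts.fit, eBayes; 8 residual and 4.11 prior degrees of freedom). P-values were adjusted by Benjamini and Hochberg over all 24675 genes within each of 5 comparisons: hepcidin against PBS at 1 h and at 3 h, the difference between these effects, and 3 h against 1 h within PBS and within hepcidin. Intervals are 95% and unadjusted. The model was tested on simulated data.

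The 8 genes, the pathway lists and the tests were chosen with earlier results of these data known. Named were all 8, up to 5 genes per list called in a hepcidin comparison, Srebf1, Scap, Insig2 and Gpr183 whatever their result, and Tnf and Cxcl2 as a check of the response. Some others were named after their values were seen. Likeness took 3 genes per called gene, without predicted gene models. Results were recomputed with a block for replicate number, with a trended and robust prior, with genes above the median mean, with median centring, with a second quantile normalization, with only the groups compared, and without each of the 12 arrays. Counts of positive and negative differences in the lists, and their medians, were recomputed only with median centring and the second quantile normalization. Background correction could not be varied from this table. Some genes of the pathway are not reported here.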

Additional observations from a re-analysis of the deposited data

Results flagged for a closer look

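Gpr183, and the check gene Tnf, had a hepcidin effect that differed between 3 h and 1 h by the test of that difference. For Gpr183 the log2 difference of hepcidin from PBS was -1.27 at 3 h and -0.15 at 1 h, and the difference between them was -1.12 (SE 0.17, limma adjusted p = 0.00826). All 3 hepcidin arrays lay below all 3 PBS arrays at both times. In PBS it differed by 0.39 between 3 h and 1 h (adjusted p = 0.22). For Tnf, which encodes an inflammatory cytokine, the log2 difference of hepcidin from PBS was 2.67 at 3 h and 3.60 at 1 h, and the difference between them was -0.92 (SE 0.18, limma adjusted p = 0.0296). None of the 8 sterol genes had a difference between the times that passed.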

How the results depend on the processing

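Of the 4 calls among the 8 genes, both Ch25h calls held under every alternative run, and those of Mvd at 3 h and Sqle between the PBS groups did not. The count of the 8 called at 3 h was 3 with a trended and robust prior, 3 among genes above the median mean, 1 with median centring, 1 with only the groups compared, and 1 to 2 with an array left out. Between the PBS groups it was 0 with only the groups compared and 0 to 1 with an array left out. Between the hepcidin groups it was 2 with a trended and robust prior and 3 among genes above the median mean. Over all genes, the count at 3 h was 805 with only the groups compared and 837 to 1287 with an array left out. Between the hepcidin groups it was 616 with only the groups compared and 721 to 1178 with an array left out. For the difference between the effects it was 433 with a trended and robust prior, 412 among genes above the median mean and 141 to 234 with an array left out. Between the PBS groups it was 319 with a trended and robust prior, 333 among genes above the median mean, 64 with median centring, 7 with only the groups compared and 23 to 126 with an array left out. Where these calls were lost, the cause was not tested, except that fewer samples entered the fits with groups or arrays left out.

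Reversals were all among values that did not pass. Hmgcs1 in the difference between effects was -0.0101 with median centring and -0.0646 to 0.122 with an array left out. Sqle at 1 h was -0.0123 with a second quantile normalization and -0.0238 to 0.0708 with an array left out. Srebf2 in the difference was 0.00487 with the second quantile normalization and -0.100 to 0.0660 with an array left out. With an array left out, Mvk at 3 h was -0.0597 to 0.0193, Idi1 at 3 h -0.0555 to 0.0949, Insig1 in the difference -0.0683 to 0.188, Mvk between the PBS groups -0.00204 to 0.0644, Idi1 between the PBS groups -0.154 to 0.101 and Insig1 between the hepcidin groups -0.244 to 0.0124.

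Arrays share replicate numbers, but no label states that these mark pairs, and the numbers were not taken as pairs. The deviations of same-numbered hepcidin and PBS arrays of one time correlated with r from 0.0595 to 0.206, with 4 of 6 over 0.1. Of 12 arrays, 7 correlated best with their own number in every other group, so the main fit may leave out a pairing. With the replicate block, more genes were called in every comparison: 163 against 138 for hepcidin at 1 h and 1615 against 1316 at 3 h. For the difference between the effects it was 348 against 254. Between the PBS groups it was 240 against 111, and between the hepcidin groups 1529 against 1246. Of the 8 genes, 2 were called between the hepcidin groups with the block, Sqle being added (adjusted p = 0.0359).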

Other observations

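Fatty acid synthesis, which SREBP1 and LXR drive, was measured in 12 of 12 listed genes, and 1 rose and 1 fell with hepcidin at 3 h, where 2.80% of all genes were called higher and 2.53% lower. Scd2, a stearoyl-CoA desaturase gene, read 9.19, 8.94 and 8.51 with hepcidin at 3 h, against 9.57, 9.61 and 9.56 with PBS at 3 h. The hepcidin arrays all lay below the PBS arrays but were widely spread, and Scd2 fell by 0.70 on the log2 scale (SE 0.14, adjusted p = 0.00892, or 0.0592 with only these groups in the fit). Acss2, the cytosolic acetyl-CoA synthetase gene and a known SREBP target, read 5.55, 5.48 and 5.64 with hepcidin at 3 h, against 5.22, 5.09 and 5.02 with PBS at 3 h. It rose by 0.45 (SE 0.10, adjusted p = 0.0181), a call that ended without PBS 3 h replicate 2 or 3 or hepcidin 3 h replicate 3 (0.0691 to 0.0849). The median of the 12 was -0.06, beside 0.02 for all genes. Acacb, also of the 12, had a low signal, with means of 4.15 with hepcidin and 4.20 with PBS at 3 h, below the array medians. At 1 h limma called 0 of the 12, with 0 at an unadjusted p under 0.05.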
